A study of Mus musculus with 8 samples.

Results

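The circadian clock genes examined here are the core activators Clock, Arntl and Npas2, their repressors Per1, Per2, Per3, Cry1 and Cry2, and the output factors Dbp and Tef. They were taken from a fixed list of 10 genes, and each gene was represented by its brightest probe set among those annotated to 1 gene symbol. Of the 10, 9 were measured among 19937 genes in all, each by 1 probe set, and Npas2 is not analysed here. Expression was compared between 4 control livers and 4 liver tumours of mice, with 1 Affymetrix mouse gene array of total RNA per sample. The tumours arose with liver-specific expression of human c-MYC, which the CEBPB-LAP promoter drove under doxycycline control, and mice reached the humane endpoint before tumours were collected. This treatment entry is written for all 8 samples, while the controls are described as normal livers of matched mice, so which alleles or agents the controls carried is not given in the sources used here. Strain, age and the hour at which tissue was taken are not given there either. The values are log2 intensities, so a difference of 1 is a 2-fold change.

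In the liver, CLOCK (or its relative NPAS2) pairs with BMAL1, the product of Arntl, and binds E-box sequences in the genes of the PER and CRY proteins, which then inhibit their own activators. A second loop runs through REV-ERB repressors (Nr1d1, Nr1d2) and ROR activators (Rora), which compete for the same element in the Arntl promoter. DBP and TEF are D-box-binding factors that pass the rhythm to metabolic genes. Transcripts of Dbp, Per3, Nr1d1 and Nr1d2 peak in mouse liver many hours apart from those of Arntl, Clock and Cry1, so levels depend on the hour of collection. MYC with its partner MAX also binds the E-box letters CACGTG.

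Promoter sequences from RefSeq (GRCm38.p6) show these elements in some of the measured clock genes. Of the genes printed, Per3 and Tef passed the test below, and Arntl, Cry1 and Per1 did not. They are printed on the strand of the gene, with the element in capitals. A window of 300 bases, 250 before to 50 after an annotated start, was found for 8 of the 9 measured members, in 13 windows. The Arntl stretches, chr7:113207493-113207522 and chr7:113207529-113207558 (plus strand), hold the ROR element. The Per3 stretch, chr4:151044804-151044883 (minus strand), holds 2 D-boxes. The stretches of Cry1 (chr10:85185082-85185141, minus strand), Per1 (chr11:69098756-69098815, plus strand) and Tef (chr15:81802519-81802578, plus strand) hold the E-box.
Arntl first ROR element: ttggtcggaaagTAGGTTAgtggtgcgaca
Arntl second ROR element: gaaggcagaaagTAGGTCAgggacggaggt
Per3: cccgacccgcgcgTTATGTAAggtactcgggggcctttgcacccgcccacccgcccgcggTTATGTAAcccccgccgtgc
Cry1: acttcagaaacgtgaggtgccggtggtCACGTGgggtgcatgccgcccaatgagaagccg
Per1: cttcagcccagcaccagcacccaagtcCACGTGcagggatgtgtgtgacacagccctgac
Tef: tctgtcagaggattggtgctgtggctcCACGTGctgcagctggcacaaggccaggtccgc
The searches covered both strands. The E-box letters CACGTG were found in 3 of the 8 genes, and in 7.15% of all 32851 windows of this length. The D-box letters TTANGTAA were found in 1 of the 8 and in 2.32% of all windows. The letters TAGGTNA, taken for the ROR element, were found in 1 of the 8 and in 8.29% of all windows. The counts are by gene, where 1 matching window among several is enough, while the shares are by window, so the figures are not in like units. The letters searched do not overlap each other. No match was found in the windows of Clock, Cry2 or Dbp, which says only that these letters are not in those windows.

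Control liver 2 and control liver 3 stood apart from the other controls in certain genes. In control liver 2, several clock genes lay far from the other controls. In control liver 3, Xist, which is transcribed from the inactive X chromosome, read 11.89 against 4.86 to 7.12 on the other arrays, and 3 Y-linked genes read 3.46 to 5.39, a range that serves here as a guide to values near background. The Y-linked gene Eif2s3y read at least 8.56 on every other array. Control liver 3 thus read as female and the other arrays as male, so the groups were not balanced for sex. The part of sex in the differences was not tested. Because of the clock genes of control liver 2, counts of called genes and the members' differences are also given without it. This choice was made after the values were seen, and it does not balance the groups for sex. Every array was also left out in turn. The mean of every clock gene lay above the low range of 3.46 to 5.39 in both groups. Array medians lay between 6.33 and 6.44. Over all genes, tumour 4 stood farthest from its group. In it, 9.84% of genes lay at least 0.5 on the log2 scale from the mean of the other tumours. That share was 5.57% in control liver 2 among the controls, and 3.45% to 7.69% over all arrays but tumour 4.

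Clock genes were lower in the tumours or did not pass the test. Clock, Per3, Dbp and Tef fell, and none of the 9 rose (0 higher also at an unadjusted p under 0.05, where 5 were lower, in limma). Over all genes tested, 12.7% were lower and 16.2% higher (28.9% in either direction) at the same threshold, an adjusted p under 0.05 (Benjamini-Hochberg over 19937 genes). The median log2 change of the 9 was -0.38, against -0.04 for all genes. Without control liver 2, 4 of 9 were again lower and none higher, beside 11.0% lower and 14.1% higher of all genes (25.1% in all), and the median was -0.45. Tumours and controls did not overlap for 3 members (Clock, Per3 and Tef), all lower, beside 30.2% of all genes (13.9% lower and 16.3% higher).

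Clock, the partner of BMAL1 and an activator of the loop, read 9.10, 9.73, 9.26 and 9.32 in control livers 1 to 4. It read 8.34, 8.50, 8.38 and 8.16 in tumours 1 to 4. Every tumour lay below every control. The control mean was 9.35 ± 0.27 and the tumour mean 8.34 ± 0.14 (SD, n = 4 each), a 2.01-fold decrease (log2 change -1.01, SE 0.14, adjusted p = 0.000325 in limma). Whichever single array was omitted, the call held, with limma adjusted p-values up to 0.00147. The change was -0.88 (SE 0.12) once control liver 2 was omitted.

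Arntl, which encodes BMAL1, read 6.38, 7.89, 6.63 and 7.01 in control livers 1 to 4. In tumours 1 to 4 it read 5.87, 6.41, 6.42 and 6.19. Control liver 2 was the highest array, and control liver 1 lay among the tumours. The difference did not pass the test (log2 change -0.76, SE 0.28, 95% interval -1.39 to -0.13, adjusted p = 0.0735 in limma). The value was -0.45 once control liver 2 was omitted (adjusted p = 0.114 in limma). Only the omission of control liver 1 among the single arrays gave a call (-0.96, adjusted p = 0.0265 in limma).

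**Figure D1:**
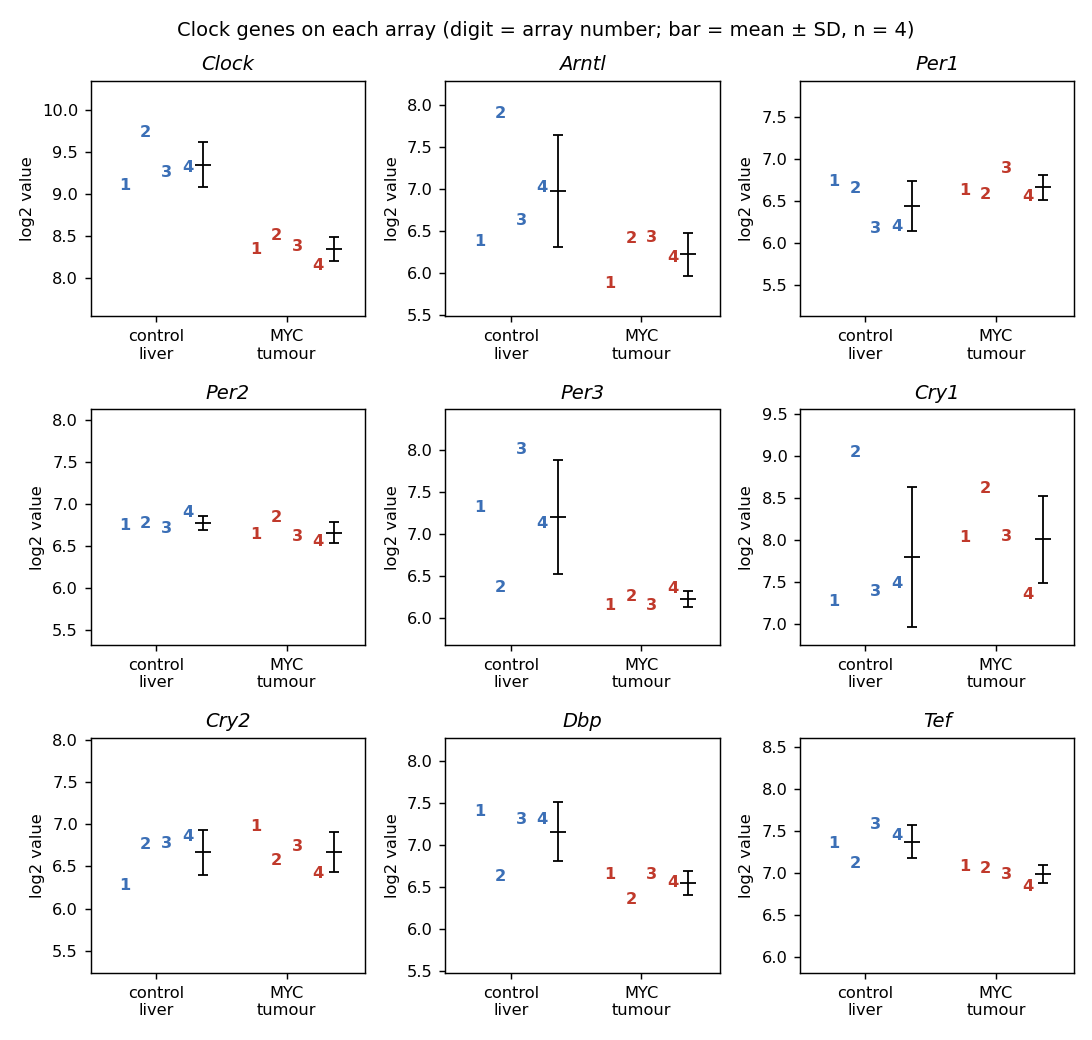
Log2 values of the 9 measured clock genes on each array. Digits are array numbers within the group, the vertical axis is the log2 value (each panel spans the same range), and bars give mean ± SD of 4 arrays; control liver 2 is the highest control for Clock, Arntl and Cry1 and the lowest for Per3, Dbp and Tef.

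Of the PER repressors, Per3 passed the test. It read 7.31, 6.37, 8.01 and 7.13 in control livers 1 to 4, and 6.15, 6.25, 6.15 and 6.36 in tumours 1 to 4. Control liver 2 lay only just above tumour 4, and the tumours were close to one another. The control mean was 7.21 ± 0.68 and the tumour mean 6.23 ± 0.10 (SD, n = 4 each), a 1.97-fold decrease (log2 change -0.98, SE 0.27, adjusted p = 0.0210 in limma). The call was lost without tumour 1 (adjusted p = 0.0530 in limma) or tumour 3 (0.0527). The decrease was 2.39-fold with control liver 2 omitted (log2 change -1.26, SE 0.19, limma adjusted p = 0.00124). With control liver 3 omitted the log2 change was -0.71 (limma adjusted p = 0.0275).

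Per1, the member of the family that also responds to acute signals, read 6.73, 6.64, 6.16 and 6.19 in controls and 6.63, 6.57, 6.88 and 6.55 in tumours. The groups overlapped, with control livers 3 and 4 below all other arrays. Its difference, tumours minus controls, was 0.23 (SE 0.15, 95% interval -0.11 to 0.56, adjusted p = 0.316 in limma). It was 0.30 with control liver 2 omitted. Per2, the closest relative of Per1 in the loop, varied little on these arrays. Its 8 values lay between 6.55 and 6.90, also in control liver 2 (6.78), and its difference was -0.12 (SE 0.10, 95% interval -0.34 to 0.10, adjusted p = 0.427 in limma), and again -0.12 without control liver 2. Per2 therefore did not follow the pattern of control liver 2 seen in Per3.

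Of the CRY repressors, Cry1 had the largest SD of the members in both groups (0.83 in controls and 0.52 in tumours, n = 4 each). Controls read 7.27, 9.04, 7.39 and 7.48, and tumours 8.03, 8.62, 8.04 and 7.35. Control liver 2 lay far above the other controls, and tumours 1, 2 and 3 lay between them. The difference was 0.22 (SE 0.38, 95% interval -0.64 to 1.07, adjusted p = 0.739 in limma). Omitting control liver 2, it was 0.63 (SE 0.25, adjusted p = 0.102 in limma). Omitting other single arrays gave 0.014 (tumour 2) to 0.44 (tumour 4), with 0.041 for control liver 1, 0.082 for control liver 3 and 0.11 for control liver 4. Cry2 read 6.28, 6.76, 6.77 and 6.86 in controls and 6.98, 6.57, 6.74 and 6.42 in tumours, with full overlap. Its difference was 0.01 (SE 0.16, 95% interval -0.34 to 0.36, adjusted p = 0.976 in limma), and its sign turned without control liver 1, tumour 1 or tumour 3 (-0.12, -0.091 and -0.011) and with quantile normalisation (-0.0051). It was 0.040 without control liver 2.

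Both output factors of the D-box family were lower in tumours. Dbp read 7.40, 6.63, 7.31 and 7.31 in control livers 1 to 4 and 6.65, 6.35, 6.65 and 6.56 in tumours 1 to 4. Control livers 1, 3 and 4 lay together above all tumours, while control liver 2 lay among the tumours. The control mean was 7.16 ± 0.35 and the tumour mean 6.55 ± 0.14 (SD, n = 4 each), a 1.53-fold decrease (log2 change -0.61, SE 0.17, adjusted p = 0.0184 in limma). Omitting control liver 1 (limma adjusted p = 0.0513) or tumour 2 (0.0538) ended the call. With control liver 2 omitted, the groups did not overlap and the change was -0.79 (SE 0.11, limma adjusted p = 0.000639).

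Tef, the relative of Dbp, read 7.35, 7.12, 7.58 and 7.45 in controls and 7.08, 7.05, 6.99 and 6.84 in tumours. Every tumour lay below every control, with control liver 2 nearest to them. The decrease was 1.31-fold (log2 change -0.38, SE 0.12, adjusted p = 0.0291 in limma). This call was the least stable of the 4. Omitting any of control livers 1, 3 and 4 or of tumours 3 and 4 ended it (limma adjusted p from 0.0538 to 0.0819), as did subtracting array medians (0.0580). Omitting control liver 2 gave a change of -0.47 (limma adjusted p = 0.00995).

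The clock genes of control liver 2 deviated in opposite directions. Against the mean of the other 3 controls, Cry1 lay 1.66 above, Arntl 1.22 above and Clock 0.51 above on the log2 scale. Per3 lay at -1.12, Dbp at -0.70 and Tef at -0.34. A deviation of at least 0.5 in size, a limit chosen after the values were seen, was found for 5 of the 9 members in control liver 2, beside 5.57% of all genes. The same count was 3 in control liver 1 (6.50% of all genes), 2 in control liver 3 (5.46%) and 0 in control liver 4 (7.69%). The mean used for these 3 arrays includes control liver 2, which can raise their counts. Cry1 was counted in control livers 1 and 3 although they read 7.27 and 7.39, beside 7.48 in control liver 4. Among tumours the count was 0, 1, 0 and 1 for tumours 1 to 4, beside 5.15%, 4.44%, 3.45% and 9.84% of all genes. These are single arrays, and no test was made. The labels give no batch, and the Y-linked gene Eif2s3y read 9.33 in control liver 2, against 9.37 and 9.12 in control livers 1 and 4. The part of the hour of collection was not tested.

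The tumours were more alike in these genes than the controls were. The SD over 4 arrays was larger in controls than in tumours for 8 of 9 members (Per2 was the exception), against 48.8% of all genes. The median SD of the members was 0.30 in controls and 0.14 in tumours, against 0.16 and 0.17 over all genes. Without control liver 2, 5 of 9 members kept a larger SD in controls, against 44.3% of all genes, and the median SD of the members in the remaining 3 controls was 0.11. The wider spread of the controls therefore rested largely on control liver 2, which was left out after the data were seen.

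**Figure D2:**
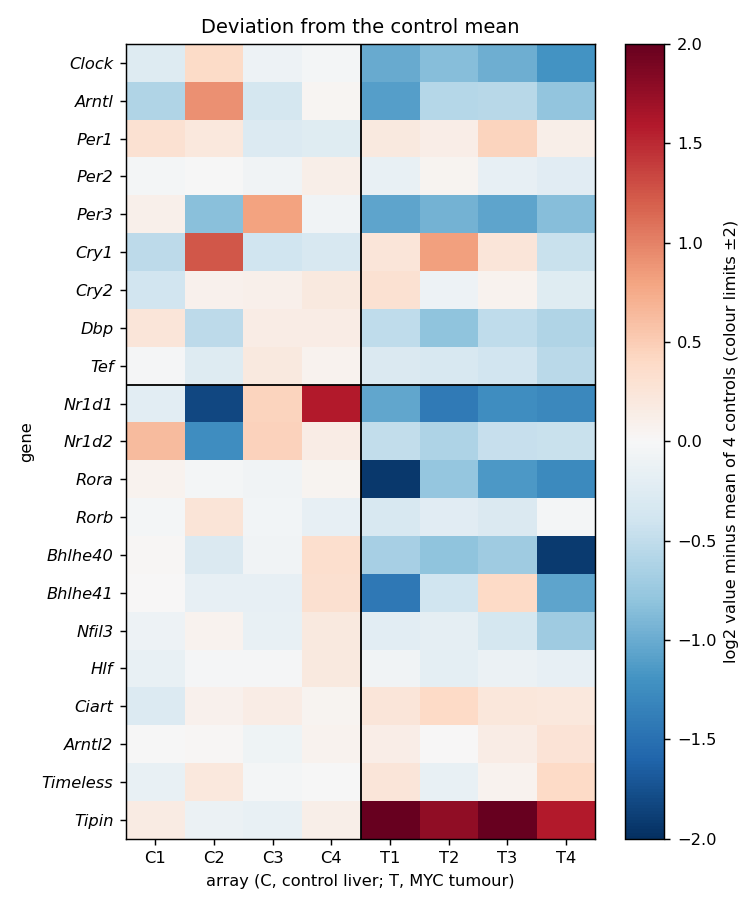
Log2 value minus the mean of the 4 controls, for the 9 clock genes (above the line) and 12 other clock transcription factors (below it), with arrays as columns; colours end at ±2. In control liver 2, Arntl and Cry1 are high and Per3, Dbp, Nr1d1 and Nr1d2 are low, while the tumours are low in Clock, Per3 and Dbp.

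Other clock transcription factors were given by a list of 13 genes, of which 12 were measured. Over the list 1 was higher and 2 lower, beside 16.2% and 12.7% of all genes. Without control liver 2, 1 was higher and 4 lower, beside 14.1% and 11.0%. Rora, the ROR activator of Arntl, read 9.04, 8.93, 8.89 and 9.02 in controls and 7.04, 8.19, 7.81 and 7.70 in tumours. All tumours lay below all controls, and control liver 2 did not differ from its group. Rora fell 2.43-fold (log2 change -1.28, SE 0.20, adjusted p = 0.000684 in limma). Bhlhe40, a repressor that competes for E-boxes, fell 2.03-fold (log2 change -1.02, SE 0.26, adjusted p = 0.0131 in limma), with 5.98 in tumour 4 and 7.09 to 7.24 in the other tumours. Without tumour 4 its change was smaller, -0.73 (SE 0.14, adjusted p = 0.00473 in limma). Tipin, which acts with Timeless at the replication fork, rose 3.76-fold (log2 change 1.91, SE 0.15, adjusted p = 5.1e-06 in limma), while Timeless itself differed by 0.14 (SE 0.13, adjusted p = 0.494 in limma).

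The REV-ERB genes followed the pattern of Per3 and Dbp in the controls. Nr1d1, which encodes REV-ERB alpha, read 8.61, 7.01, 9.26 and 10.41 in control livers 1 to 4 and 7.79, 7.41, 7.58 and 7.53 in tumours 1 to 4. Control liver 2 lay below every tumour and the other controls above every tumour. Its difference was -1.25 (SE 0.55, adjusted p = 0.127 in limma). It was -1.85 with control liver 2 omitted (SE 0.35, adjusted p = 0.00370 in limma), and -0.72 with control liver 4, the highest array, omitted (0.265). Nr1d2, which encodes REV-ERB beta, read 10.04, 8.17, 9.87 and 9.55 in controls and 8.91, 8.80, 8.94 and 8.95 in tumours. Its difference was -0.51 (SE 0.34, adjusted p = 0.316 in limma). It was -0.92 with control liver 2 omitted (SE 0.13, adjusted p = 0.000698 in limma), and -0.30 with control liver 1 omitted (0.597). Both calls therefore appeared only where control liver 2 was left out, among all the alternatives run.

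The remaining factors of the list did not pass. Nfil3, the D-box repressor, differed by -0.36 (adjusted p = 0.0726 in limma) and passed with quantile normalisation (0.0186). The letters TAGGTCA, on the other strand, stand just before its annotated start in chr13:52981034-52981063 (minus strand), shown because Nfil3 is a textbook target of the same receptors as Arntl.
Nfil3: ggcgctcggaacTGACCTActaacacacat
Bhlhe41, the close relative of Bhlhe40, ranged from 4.44 to 6.26 among tumours and differed by -0.62 (SE 0.33, adjusted p = 0.200 in limma), with a call only without tumour 3 (-0.96, adjusted p = 0.0128 in limma). Its tumour mean of 5.25 lay in the low range, so the size of this difference is a limit. Ciart, a repressor of CLOCK and BMAL1, read higher in all tumours than in any control (0.27, SE 0.11) but did not pass (adjusted p = 0.102 in limma). Hlf (-0.14), the third D-box activator, and Arntl2 (0.14), the paralogue of Arntl, had adjusted p-values of 0.371 and 0.322 in limma. Rorb (-0.22, adjusted p = 0.195 in limma) read 5.18 to 5.75, with a tumour mean of 5.28 inside the low range set by the Y-linked genes.

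**Figure D3:**
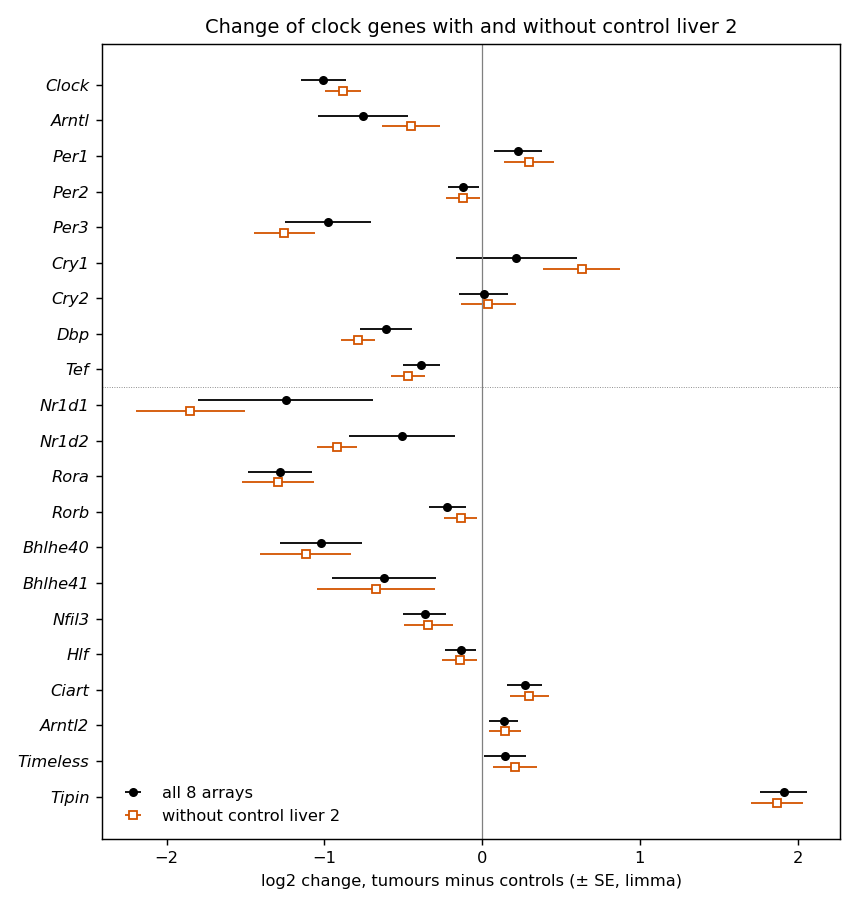
Log2 change, tumours minus controls, with its SE from limma, for the clock genes and 12 other clock transcription factors; filled circles use all 8 arrays and open squares leave out control liver 2. Nr1d1 moved from -1.25 to -1.85, Nr1d2 from -0.51 to -0.92 and Cry1 from 0.22 to 0.63, while Rora and Tipin hardly moved.

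Relatives within the loop were compared by the per-array difference of their log2 values, in 7 pairs. No pair passed an exact two-sided permutation test (0 of 7, also at an unadjusted p under 0.05), in which the smallest p for 4 against 4 arrays is 0.0286. A single pair at that p could not have passed after adjustment over the 7 pairs. Per1 and Per3 differed in change by 1.20 (95% interval 0.09 to 2.31, exact p = 0.0571, adjusted p = 0.200 over the 7 pairs). Per2 and Per3 differed by 0.86 (interval -0.04 to 1.75, exact p = 0.0571, adjusted p = 0.200). Dbp and Tef differed by -0.22 (interval -0.58 to 0.13, exact permutation p = 0.200, adjusted p = 0.350). Cry1 and Cry2 differed by 0.21 (interval -0.93 to 1.35, exact permutation p = 0.571). The intervals are not from the permutation test but from a t distribution, with the variance pooled over both groups. That of Per1 and Per3 excludes equal changes although the exact p is 0.0571. The SD of this pair's difference was 0.88 in controls and 0.23 in tumours. The wide intervals leave room for unequal changes in each of these pairs.

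Genes for proteins that modify or degrade clock proteins moved in both directions. Of 19 measured kinases, phosphatases and parts of the ubiquitin machinery, 8 were higher and 2 lower, beside 16.2% and 12.7% of all genes. The counts were 7 and 2 without control liver 2, beside 14.1% and 11.0%. The median change was 0.15, against -0.04 for all genes. The 2 catalytic subunits of AMPK, a kinase that marks CRY1 for degradation, passed in opposite directions, though the difference between them was not tested. Prkaa1 rose 2.03-fold (log2 change 1.02, SE 0.11, limma adjusted p = 4.4e-05). Prkaa2 fell 1.88-fold (log2 change -0.91, SE 0.17, adjusted p = 0.00241 in limma). Fbxl21, an F-box protein that binds CRY proteins, fell 2.46-fold to a tumour mean of 4.97, within the low range, so this fold is a limit. Ddb1, an adaptor of a CRY1 ubiquitin ligase, rose 2.30-fold (SE 0.14 on the log2 scale), and Ppp1ca, a catalytic subunit of protein phosphatase 1, rose 2.14-fold (SE 0.21). The PER kinase genes Csnk1d and Csnk1e differed by 0.15 and 0.10 (adjusted p = 0.432 and 0.475 in limma).

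Coregulators of the clock were mostly higher. Of 12 measured, 7 were higher and 1 lower, beside 16.2% and 12.7% of all genes, with a median change of 0.47 against -0.04. Leaving out control liver 2 gave 6 and 1, beside 14.1% and 11.0%. Ezh2, the methyltransferase of Polycomb complex 2, rose 3.01-fold (log2 change 1.59, SE 0.14). Nono, an RNA-binding partner of PER proteins, rose by 1.00 (SE 0.14), and Wdr5, a subunit of histone methyltransferase complexes, by 0.76 (SE 0.11). Kat2b, an acetyltransferase that acts with CLOCK, fell 2.78-fold (log2 change -1.47, SE 0.17), with every tumour (6.93 to 7.61) below every control (8.45 to 8.90). For these 4 genes limma gave adjusted p-values from 1.5e-05 to 0.000413. Several of these genes also act in cell division and RNA processing, so the list is not specific to the clock.

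Textbook rhythmic genes of liver metabolism were lower in most cases. Of 14 measured, 8 were lower and 1 higher, beside 12.7% and 16.2% of all genes, and the median change was -1.68 against -0.04. The counts were the same without control liver 2, beside 11.0% and 14.1% of all genes. Thrsp, a lipogenic gene, averaged 11.39 ± 0.18 in controls and 6.77 ± 0.56 in tumours (SD, n = 4 each), a log2 change of -4.62 (SE 0.24), and Upp2, a uridine phosphorylase, fell by 4.57 on the log2 scale (SE 0.33). Cyp7a1, the rate-limiting enzyme of bile acid synthesis, changed by -4.01 (SE 0.49), and Elovl3, a fatty acid elongase, by -4.49 (SE 0.83). Elovl3 ranged from 6.25 in control liver 3, the liver that read as female, to 11.10 in control liver 2. All tumours read 4.71 to 4.98 for Elovl3, in the low range. Its fold is therefore a limit. Wee1, the kinase that restrains entry into mitosis and a classic E-box target of the clock, alone passed as higher and rose 3.63-fold (log2 change 1.86, SE 0.14). For these 5 genes limma gave adjusted p-values from 3.4e-07 to 0.00199. Another 5 genes of the list did not pass. Nampt (0.53, adjusted p = 0.0726 in limma), Rgs16 (0.58, 0.198) and Noct (0.02, 0.947) did not read lower. Lpin1 (-1.09, 0.0587) and Gys2 (-0.96, 0.134) did.

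**Figure D4:**
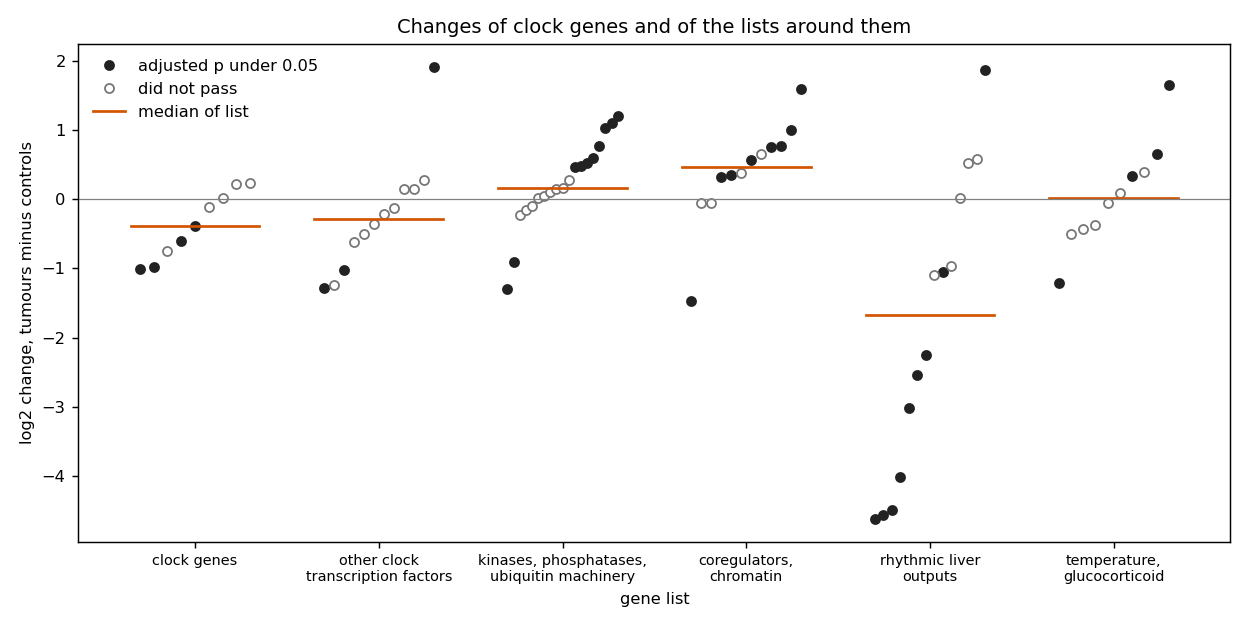
Log2 change, tumours minus controls, of each measured gene in 6 lists; filled points passed an adjusted p of 0.05 in limma, open points did not, and lines are list medians. The clock genes lie between -1.01 and 0.23, and the rhythmic liver output genes between -4.62 and 1.86.

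Genes that respond to body temperature and glucocorticoids, both of which reset liver clocks, passed in both directions. Of 10 measured, 3 were higher and 1 lower, beside 16.2% and 12.7% of all genes, with a median change of 0.01 against -0.04. Leaving out control liver 2 gave 2 and 1, beside 14.1% and 11.0%. Rbm3, a cold-inducible RNA-binding protein, rose 3.14-fold (SE 0.19 on the log2 scale), and the chaperone gene Hsp90aa1 rose 1.56-fold (SE 0.13). Hspa8, another chaperone gene, rose by 0.33 (SE 0.09, adjusted p = 0.0207 in limma). The Hspa8 call was lost without control liver 2 (0.0556), tumour 1 (0.0562) or tumour 3 (0.0594). Tsc22d3, a glucocorticoid target, fell 2.31-fold (log2 change -1.21, SE 0.20). The 6 other genes of the list did not pass. Unlike Rbm3 and the named chaperone genes, Cirbp (-0.44, adjusted p = 0.0512 in limma) and Hspa1a (-0.50, 0.0581) read lower, Cirbp in every tumour. Sgk1 (-0.37), Zbtb16 (-0.06), Fkbp5 (0.39) and Hsph1 (0.09) had limma adjusted p-values from 0.143 to 0.873. Of all genes of the kinase, coregulator, output and temperature lists that passed, Hspa8, Ppp5c and Ep300 lost their calls without control liver 2. Adjusted p-values in limma were then 0.115 for Ppp5c, of the kinase list, and 0.0909 for Ep300, of the coregulator list. Each of these 2 lost its call in 6 of the fits that left out 1 array.

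The genes with the most similar pattern to each member were named by the smallest mean absolute difference over the 8 arrays between log2 deviations from the control mean, among 18709 genes. For Arntl the nearest was Clpx, a mitochondrial protease subunit, with a mean difference of 0.13. Clpx was lower in tumours by the test (-0.72, adjusted p = 0.0421 in limma). For Cry1 the nearest was Chka, a choline kinase, at 0.22. For Clock they were Rhobtb1, Otud1 and Rnd1, at 0.09 to 0.11, and for Dbp Impa1, Pcmtd2 and Clcn7, at 0.09 to 0.11. For Tef they were Tnks1bp1, Mon2 and Cnpy2, each at 0.06, and for Per3 Serpinb9, Olfr1030 and St8sia3, at 0.19 to 0.21. None of the 12 other clock transcription factors was among the 3 nearest to any member. For the flat patterns of Per1, Per2 and Cry2, the nearest differed by 0.04 and the measure says little.

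Cell type markers moved with the groups. Fewer cells of a type and less RNA per cell cannot be told apart in these tissue samples. Of 7 hepatocyte markers 7 were lower in tumours, beside 12.7% of all genes, with a log2 summed level of 15.22 to 15.40 in controls and 14.16 to 14.60 in tumours. The call for Hnf4a (adjusted p = 0.0494 in limma, with overlapping groups) was lost in 7 of 8 fits that left out 1 array, that for Apoa1 in 3 and that for Cps1 in 2, with adjusted p-values up to 0.115. Tat and Cyp2e1 fell by 5.71 and 6.38 on the log2 scale, though Alb and Ttr stayed among the bright probe sets, at 12.21 or more on every array. Over all genes 16.2% were higher and 12.7% lower. Of 5 Kupffer cell markers 1 was higher and 2 lower (10.86 to 11.81 against 9.89 to 10.55). Of 5 macrophage markers 2 (Cd68 and Lyz2) were higher and none lower (9.49 to 10.55 against 11.19 to 12.32). Adgre1, Csf1r and Cx3cr1 differed by 0.21, -0.17 and 0.02 and did not pass (adjusted p = 0.677, 0.490 and 0.943 in limma). All summed levels add intensities before the log2 is taken, so the brightest markers weigh most in each. Of 6 endothelial markers 3 were lower (10.19 to 10.78 against 9.46 to 9.92), and of 6 stellate cell and fibroblast markers 2 were lower (11.18 to 11.73 against 9.85 to 11.32). Of 4 bile duct markers 1 was higher and 1 lower (8.23 to 8.36 against 8.13 to 8.52). Some of these calls were unstable when 1 array was left out. Sox9, the bile duct marker counted lower, lost its call in 7 of 8 such fits, and Cd5l, the Kupffer cell marker counted higher, in 4. Dcn, a stellate cell and fibroblast marker counted lower, had overlapping groups. None of 6 lymphocyte markers (8.32 to 8.92 against 8.43 to 8.58), 4 neutrophil markers (7.38 to 9.46 against 7.21 to 8.09) or 2 erythroid markers (8.03 to 8.53 against 7.91 to 8.28) passed in either direction. Cd79a, Ms4a1 and Ly6g were in the low range. Summed levels of control liver 2 lay within the range of the controls for each type except macrophages, where it was the lowest (9.49). The part of these shifts in the changes of the clock genes was not tested.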

How the data were processed

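Biotin-labelled total RNA from 4 control livers and 4 MYC tumours was measured on 8 arrays. The authors deposited log2 values per probe set, made with RMA in R 3.0.2 per the submitters' processing notes. RMA corrects background, normalises between arrays and summarises probes, which compresses differences at low signal. Its settings and the genome build are not given in the sources used here. Of 34760 probe sets, 21640 had 1 gene symbol, 1321 several and 11799 none, and 21553 of the first were matched by gene identifier to RefSeq. The brightest probe set per gene was kept (19937 genes).

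Groups were compared with limma 3.58.1 (lmFit, eBayes) in R 4.3.3. The design held the group alone, with Benjamini-Hochberg adjustment over all genes at 0.05. Depth does not apply to arrays, and 4 arrays per group limit the precision. The labels number the samples without naming mice, so the p-values reflect the spread among these samples, which may be technical. The members and gene lists were chosen with earlier results of these data known. Named genes were all members, all other clock transcription factors, the 3 most similar genes per member, and sex markers. From each remaining list they were the genes past the threshold that changed most (at most 4) and the strongest of the rarer direction. Where none passed, the gene with the greatest difference was taken. Prkaa2, Csnk1d, Csnk1e and the genes named for control liver 2 in the closing section were added after their values were seen. So were Ppp5c, Ep300 and the genes of the output and temperature lists that did not pass. Comparisons of gene pairs used exact permutation; the pair of Npas2 and Clock could not be compared. Alternatives were quantile normalisation, array medians subtracted, leaving out the dimmest genes, intensity trend with robust variance, array weights, mean of probe sets, a replicate block and leaving out each array. The fit was tested on simulated data. Tables and plots used Python 3.11.15, pandas 2.3.3 and matplotlib 3.10.9.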

Additional observations from a re-analysis of the deposited data

Results flagged for a closer look

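In 7 of 76 groups of 4 arrays, 1 array stood far from the other 3, where chance flags about 1 in 20. The groups came from 38 listed genes named by the rules above, with the sex markers left out. Values of the sex markers in control liver 3 are given above. Cry1 in control liver 2 read 9.04, against 7.27 to 7.48 in the other controls, and Dbp in control liver 2 read 6.63, against 7.31 to 7.40. Bhlhe40 in tumour 4 read 5.98, against 7.09 to 7.24 in the other tumours. Ciart in tumour 2 read 6.48, against 6.29 to 6.32. Prkaa1 in control liver 3 read 8.61, against 8.29 to 8.34. In control liver 4, Upp2 read 9.79, against 11.23 to 11.30 in the other controls, and Cyp7a1 read 8.73, against 10.68 to 11.01.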

How the results depend on the processing

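The count of 4 clock genes past the threshold, all lower, was 3 with array medians subtracted, 2 to 4 when single arrays were left out (2 without tumour 3, where Clock and Dbp passed) and 4 under the other alternatives. The other clock genes gave 21 calls, and 19 to 22 without single arrays. The rhythmic output genes gave 9, and 9 to 10. All genes gave 5757, and 4831 to 5838. The number of members with a larger SD in controls was 8, and 5 without control liver 2, an alternative chosen after seeing the data. The change of Cry2, 0.0095, turned to -0.0051 with quantile normalisation, and lay between -0.12 and 0.095 when single arrays were left out, with -0.12 without control liver 1, -0.091 without tumour 1 and -0.011 without tumour 3; it passed under none. Paired by replicate number as a block, 4 members passed (5007 genes in all): Arntl passed (adjusted p = 0.0296 in limma) and Tef did not (0.0720). The same-numbered arrays did not deviate together (correlation over genes -0.32 to 0.05, and 1 of 4 controls was most like the tumour of its number), so the numbers were not taken to pair samples. With 4 arrays per group, members that did not pass are not shown to be equal between groups.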

Other observations

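Beyond the clock lists, the genes in which control liver 2 lay farthest from the other controls were listed among 13747 genes whose other 3 controls spanned less than 0.5 on the log2 scale, leaving out predicted, olfactory receptor and small RNA genes. This rule was chosen after the data were seen, and no test was made on the single array. Below the other controls, Nr1d2 lay farthest (-1.65), followed by Anxa1 (-1.48), an annexin, St6gal1 (-1.47), a sialyltransferase, Rab5b (-1.34), an endosomal GTPase, Ugcg (-1.30), a glucosylceramide synthase, and Timm21 (-1.28), of mitochondrial protein import. Above them, Cry1 lay farthest (1.66), followed by Chka (1.47), a choline kinase, Gstm2 (1.32), a glutathione transferase, Zbtb16 (0.98), Fmo5 (0.95) and Elovl7 (0.92). By size of deviation over all 19937 genes, Nr1d1 was number 8, Cry1 number 27, Nr1d2 number 28, Arntl number 67 and Per3 number 86.

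The tumours lay on the side of control liver 2 for some of these genes and not for others. Rab5b read 7.50 to 8.10 in tumours, around the 7.58 of control liver 2 and below control livers 1, 3 and 4 (8.74 to 9.06). Chka read 8.03 to 8.31 in tumours, above the 7.48 to 7.88 of those controls, and Elovl7 read 9.93 to 10.47, above their 5.63 to 5.89 and the 6.64 of control liver 2. Anxa1 read 7.90 to 9.18 in tumours, above the 7.18 to 7.54 of control livers 1, 3 and 4 and the 5.90 of control liver 2. Gstm2 read 6.04 to 6.80 in tumours, while control liver 2 read 10.01 and control livers 1, 3 and 4 read 8.50 to 8.79. St6gal1 read 7.69 to 8.56 in tumours, between control liver 2 (7.24) and the other controls (8.59 to 8.85). Arntl and Clock were high in control liver 2, while each tumour lay below the mean of the controls for both.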
